A study of Mus musculus with 8 samples.

Results

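The RNA of 9 genes that encode ligands and receptors of the bone morphogenetic protein (BMP) and Nodal pathways, with 1 secreted Nodal inhibitor, was followed in pools of 2-cell mouse embryos. The members were taken by symbol, as the probesets annotated to exactly 1 of the symbols Bmp5, Bmp6, Bmp7, Bmpr1a, Bmpr1b, Bmpr2, Acvr2a, Nodal and Lefty1. All 9 had 1 such probeset, out of 14995 genes with a probeset of their own. All 9 also passed the filter on low values, a mean over the 8 arrays above log2 2.07, which left 11444 genes for testing.

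The embryos differed in their sires. In 3 pools the sires carried a KDM1A transgene (KDM1A TG), in 2 pools they were the littermates of such males without the transgene (nonTG), and in 3 pools they were C57BL/6 males. The sample titles read TG3 and nonTG3 for the first 2 groups, and what the 3 stands for, a generation, a line or something else, is not given. KDM1A (LSD1) is a demethylase of lysine 4 on histone H3. All dams were C57BL/6 females superovulated with 5 IU of eCG and of hCG, their oviducts were flushed 46 to 48 hours after the hCG, and a pool held 26 embryos on average. The sources used here do not give the promoter that drives the transgene, the number of males behind a pool or the genotype of the embryos themselves. Nothing says that pools of a group came from separate matings, so p-values reflect the variation among these pools, part of which may be technical.

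BMPs are dimeric ligands that bring type I and type II serine/threonine kinase receptors together on the cell surface. The type II receptor phosphorylates the type I receptor, which then phosphorylates Smad proteins that enter the nucleus with Smad4. Nodal signals through activin receptors with the help of a co-receptor, and Lefty proteins block it. In the mouse the pathways are best known for patterning the embryo around gastrulation, including left-right asymmetry, and the ovary also uses BMP signals between oocyte and granulosa cells. A pool of flushed embryos holds maternal transcripts, the first embryonic transcripts and any oviduct or follicle cells carried along, so fewer cells of a type and less RNA per cell cannot be told apart.

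The values were the authors' log2 expression summaries of Affymetrix arrays, 1 array per pool, with array medians of 2.73 to 2.86. Values were wider in KDM1A TG replicates 1 and 3, with interquartile ranges of 2.38 and 2.604, against 1.87 to 2.09 in the other 6 arrays. Over all genes tested, the log2 change had a median of 0.18 for KDM1A TG over C57BL/6, 0.04 for nonTG over C57BL/6, 0.16 for KDM1A TG over nonTG and 0.12 for KDM1A TG and nonTG together over C57BL/6. After quantile normalization these medians were 0.09, 0.06, 0.05 and 0.08. Of 13 markers of the 2-cell stage, 12 had a probeset and 11 passed the filter, among them Zscan4c, Zscan4d and Usp17lc. Of 18 oviduct epithelium markers 15 passed as well, and of 18 stroma and smooth muscle markers 17 passed. The mean of the oviduct markers ran from 5.42 to 6.17 in KDM1A TG, from 5.78 to 5.90 in nonTG and from 5.05 to 5.88 in C57BL/6 arrays. That of the 2-cell markers ran from 3.74 to 4.12, from 3.16 to 3.84 and from 3.51 to 4.30 in the same groups. Of the 11 tested, 7 had a change below 0 for KDM1A TG over C57BL/6 (median -0.15). For nonTG over C57BL/6 there were 9 of 11 (median -0.50). Kdm1a was the symbol of 0 probesets, and the sire labels could not be checked on that gene.

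The promoters of the members differed in their CpG content, which is shown as background, since the series concerns a histone demethylase. RefSeq (GRCm38.p6) windows of 250 bases before an annotated transcript start were at hand for 7 of the 9 members, and CG, the only motif searched, reads the same on both strands. For 5 members (Acvr2a, Bmpr2, Bmp5, Bmp6 and Nodal) the window ended right before the first base of the gene. Acvr2a had 49 CG pairs there and Bmpr2 had 22, whereas Bmp5 had 4. Over all 32851 windows of that length the median was 6 pairs, and 0.146% of windows had at least as many as Acvr2a, 14.8% at least as many as Bmpr2 and 62.2% at least as many as Bmp5. The windows of the type II receptor genes and of a ligand gene poor in CG are printed to show this range, Acvr2a at chr2:48813859-48814108, plus strand, Bmpr2 at chr1:59764029-59764278, plus strand, and Bmp5 at chr9:75775115-75775364, plus strand, with each CG in capitals.
Acvr2a: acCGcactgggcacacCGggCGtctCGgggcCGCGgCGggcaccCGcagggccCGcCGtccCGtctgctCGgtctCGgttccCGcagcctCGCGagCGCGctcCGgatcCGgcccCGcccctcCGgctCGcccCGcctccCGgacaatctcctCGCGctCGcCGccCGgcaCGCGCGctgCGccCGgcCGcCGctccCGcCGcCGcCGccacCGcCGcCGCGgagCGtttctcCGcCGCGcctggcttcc
Bmpr2: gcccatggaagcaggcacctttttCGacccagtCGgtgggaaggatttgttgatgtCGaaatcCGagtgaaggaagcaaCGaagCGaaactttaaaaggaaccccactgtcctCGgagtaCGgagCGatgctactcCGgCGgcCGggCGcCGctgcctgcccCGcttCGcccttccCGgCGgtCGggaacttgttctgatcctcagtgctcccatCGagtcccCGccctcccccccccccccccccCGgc
Bmp5: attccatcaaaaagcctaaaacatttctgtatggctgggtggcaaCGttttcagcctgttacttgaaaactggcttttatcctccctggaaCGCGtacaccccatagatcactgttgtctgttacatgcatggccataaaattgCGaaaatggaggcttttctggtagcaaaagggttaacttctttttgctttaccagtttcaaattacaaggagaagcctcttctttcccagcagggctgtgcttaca
Bmp6 had 22 CG pairs and Nodal had 3. The windows of Bmpr1a, with 36 pairs, and of Bmpr1b, 3 windows with 1 to 5 pairs, lay before internal transcript starts within the gene. This describes the sequence alone, since chromatin was not measured in these files.

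None of the 9 genes passed the test for any comparison of sires. By limma with Benjamini-Hochberg adjustment over 11444 genes, 0 of 9 passed for KDM1A TG over C57BL/6, where 0.725% of all genes passed, and 0 of 9 for nonTG over C57BL/6, where 0.131% passed. Likewise 0 of 9 passed for KDM1A TG over nonTG (0.0437% of all genes) and 0 of 9 for KDM1A TG and nonTG together over C57BL/6 (1.32%). At an unadjusted p under 0.05, 1 of 9 passed for KDM1A TG over C57BL/6 and 1 of 9 for KDM1A TG over nonTG, Bmpr2 in both, against 14.2% and 6.41% of all genes. The other comparisons had 0 of 9 at that level, against 8.22% of all genes for nonTG over C57BL/6 and 12.8% for KDM1A TG and nonTG together. The 95% intervals of the 9 genes reached from 0.493-fold to 2.64-fold for KDM1A TG over C57BL/6, from 0.482-fold to 2.54-fold for nonTG over C57BL/6 and from 0.501-fold to 2.996-fold for KDM1A TG over nonTG. The arrays of the groups compared did not overlap for 1 of 9 members for nonTG over C57BL/6, where this held for 24.8% of all genes. It held for 0 of 9 members for KDM1A TG over C57BL/6 (19.8% of all genes), for KDM1A TG over nonTG (22.4%) and for KDM1A TG and nonTG together (8.17%).

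**Figure D1:**
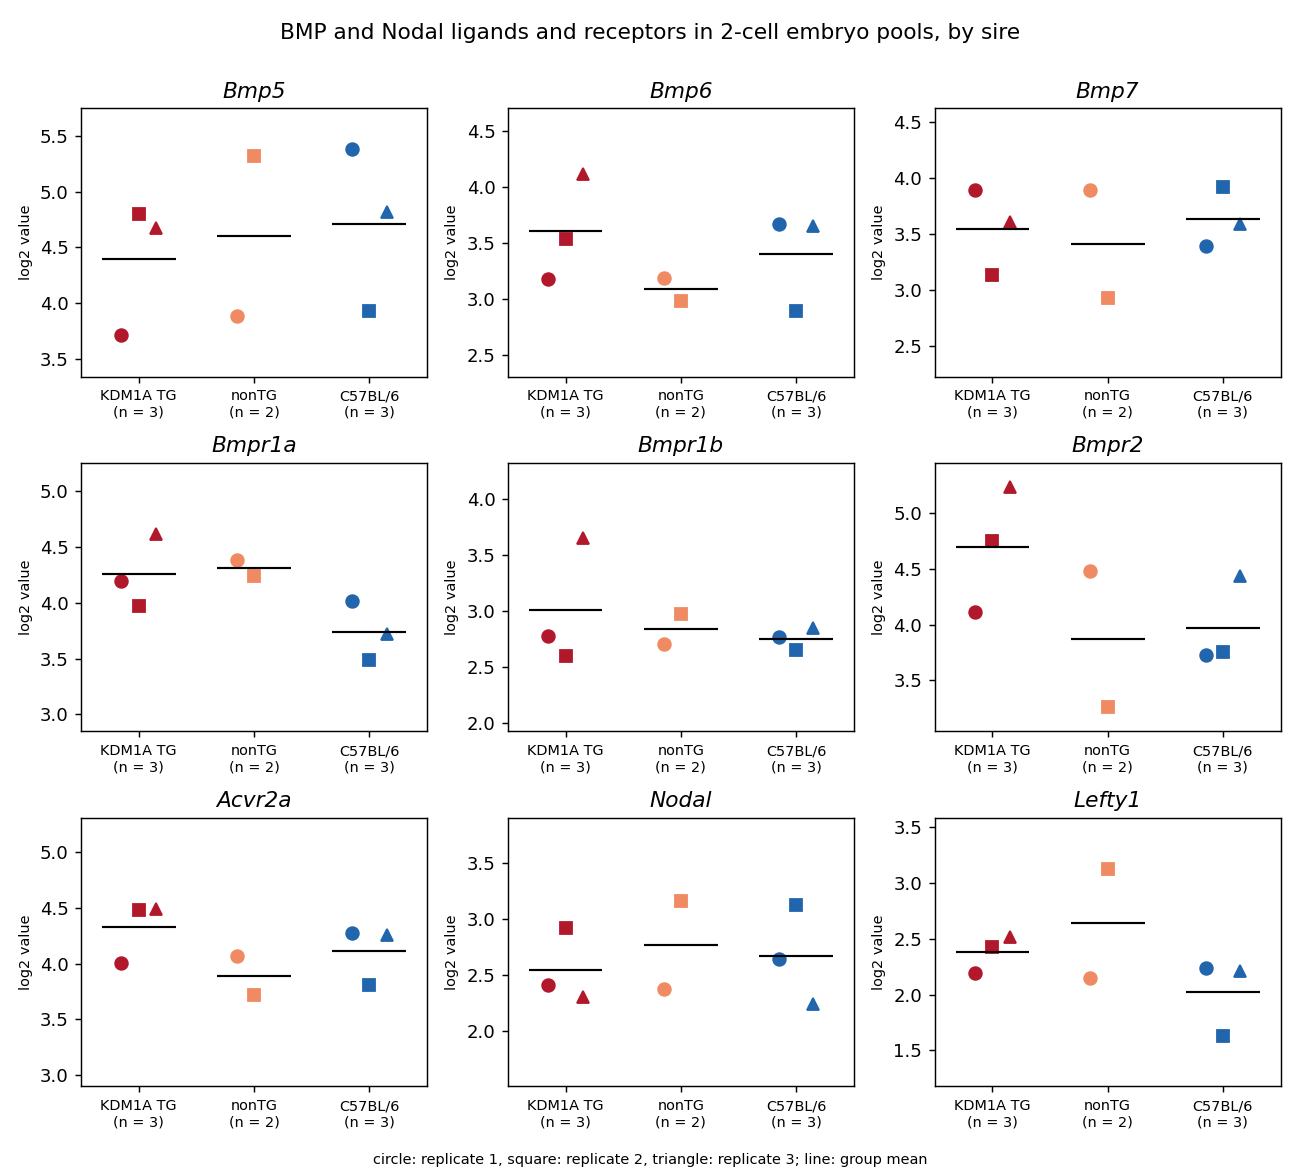
Deposited log2 value (vertical axis, the same span in every panel) of each of the 9 genes in the 3 KDM1A TG, 2 nonTG and 3 C57BL/6 arrays, with the group mean as a line and 1 symbol shape per replicate number. Arrays of every pair of groups overlap in every panel, except nonTG and C57BL/6 for Bmpr1a, where the nonTG arrays stand at 4.39 and 4.24 and the highest C57BL/6 array at 4.02.

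Among the BMP ligands, Bmp5, whose loss gives the short ear mutant mouse, varied most within groups. It stood at 3.71, 4.80 and 4.67 in the KDM1A TG arrays, at 3.89 and 5.32 in the nonTG arrays and at 5.38, 3.94 and 4.82 in the C57BL/6 arrays. Each group held a low and a high array, so the groups overlapped over nearly their whole range. The log2 change was -0.32 for KDM1A TG over C57BL/6 (SE 0.35, adjusted p = 0.661) and -0.11 for nonTG over C57BL/6 (SE 0.40, adjusted p = 0.943). The means were 4.39 ± 0.59 (SD, n = 3) in KDM1A TG, 4.604 ± 1.01 (SD, n = 2) in nonTG and 4.71 ± 0.73 (SD, n = 3) in C57BL/6 embryos.

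The mean of the maternal oocyte markers was also low in the arrays where Bmp5 was low. That mean was 4.73, 5.46 and 4.80 in the KDM1A TG arrays, 4.20 and 4.84 in the nonTG arrays and 5.51, 4.55 and 5.41 in the C57BL/6 arrays, over 10 of 14 listed markers with a probeset. Bmp5 and these markers shared their lowest array within each group. In KDM1A TG replicate 3, however, the marker mean of 4.80 was near the 4.73 of replicate 1, with Bmp5 at 4.67 against 3.71. The part of maternal RNA in the values of Bmp5 was not tested.

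Bmp6, a regulator of hepcidin and iron balance that granulosa cells and oocytes also make, stood at 3.18, 3.53 and 4.12 in the KDM1A TG arrays, at 3.19 and 2.98 in the nonTG arrays and at 3.67, 2.89 and 3.65 in the C57BL/6 arrays. KDM1A TG replicate 3 was the highest of the 8 arrays, and both nonTG arrays lay among the lower ones without standing apart from either group. The change was 0.20 for KDM1A TG over C57BL/6 (SE 0.33, adjusted p = 0.772) and -0.32 for nonTG over C57BL/6 (SE 0.37, adjusted p = 0.818). Bmp7, needed for kidney and eye development, stood at 3.89, 3.13 and 3.60 in the KDM1A TG arrays, at 3.89 and 2.93 in the nonTG arrays and at 3.39, 3.92 and 3.59 in the C57BL/6 arrays. Its arrays overlapped in every comparison, with changes of -0.09 for KDM1A TG over C57BL/6 (adjusted p = 0.902) and -0.23 for nonTG over C57BL/6 (adjusted p = 0.869).

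Of the type I receptors, Bmpr1a (ALK3), the main BMP receptor of the early mouse embryo, was the member whose nonTG and C57BL/6 arrays did not overlap. It stood at 4.19, 3.97 and 4.61 in the KDM1A TG arrays, at 4.39 and 4.24 in the nonTG arrays and at 4.02, 3.48 and 3.72 in the C57BL/6 arrays. Both nonTG arrays lay above all C57BL/6 arrays, and of the KDM1A TG arrays only replicate 2 lay below the highest C57BL/6 array. The log2 change was 0.52 for KDM1A TG over C57BL/6 (SE 0.32, adjusted p = 0.457) and 0.57 for nonTG over C57BL/6 (SE 0.36, adjusted p = 0.689). For KDM1A TG and nonTG together it was 0.54 over C57BL/6, with a 95% interval of -0.05 to 1.13 (adjusted p = 0.439), which is 0.42 above the median of all genes. Between KDM1A TG and nonTG the change was -0.06 (interval -0.78 to 0.66, adjusted p = 0.979).

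The stroma and smooth muscle markers, over 17 of 18 listed genes, had a mean of 4.57, 4.28 and 5.90 in the KDM1A TG arrays, of 5.23 and 3.86 in the nonTG arrays and of 4.20, 4.35 and 3.59 in the C57BL/6 arrays. Bmpr1a and these markers were both highest in KDM1A TG replicate 3. The change of Bmpr1a for KDM1A TG over C57BL/6 was 0.34 without that array and 0.23 without KDM1A TG replicates 1 and 3. It was 0.32 with quantile normalization and 0.28 with cyclic loess. Of the 17 stroma markers tested, 17 had a change above 0 for KDM1A TG over C57BL/6, with a median of 0.99, and their part in the values of Bmpr1a was not tested.

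Bmpr1b (ALK6), which granulosa cells and oocytes of the ovary use and which cartilage needs, stood at 2.78, 2.60 and 3.65 in the KDM1A TG arrays, at 2.71 and 2.98 in the nonTG arrays and at 2.77, 2.65 and 2.85 in the C57BL/6 arrays. KDM1A TG replicate 3 was the only array above 3, and the other 7 lay within a narrow band. The change of 0.25 for KDM1A TG over C57BL/6 (SE 0.33, adjusted p = 0.707) was -0.07 without that array. The cumulus and granulosa markers, over the 6 of 12 with a probeset, had a mean of 3.71 in KDM1A TG replicate 3, against 2.92 and 2.799 in the other KDM1A TG arrays. It was 2.56 and 2.69 in the nonTG arrays and 2.65, 2.67 and 4.01 in the C57BL/6 arrays, with Bmpr1b at 2.85 in the last of these. The part of such cells in the value of Bmpr1b was not tested.

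Of the type II receptors, Bmpr2, which serves BMPs and related growth and differentiation factors and whose human counterpart is mutated in heritable pulmonary arterial hypertension, had the largest change of the 9 genes for KDM1A TG over C57BL/6. It stood at 4.11, 4.74 and 5.23 in the KDM1A TG arrays, at 4.48 and 3.26 in the nonTG arrays and at 3.73, 3.76 and 4.43 in the C57BL/6 arrays. KDM1A TG replicates 2 and 3 were the highest of all arrays, but KDM1A TG replicate 1 lay below 1 array of each other group. The log2 change was 0.72 over C57BL/6 (SE 0.34), or 1.65-fold with a 95% interval of 1.03 to 2.64, and did not pass over all genes (adjusted p = 0.325). It stood 0.54 above the median of all genes. Over nonTG the change was 0.83 (SE 0.38, adjusted p = 0.772), and nonTG over C57BL/6 gave -0.10 (SE 0.38, adjusted p = 0.944). Without KDM1A TG replicate 3 the change over C57BL/6 was 0.46, and without nonTG replicate 2 that over nonTG was 0.21. With quantile normalization the changes were 0.50 over C57BL/6 (unadjusted p = 0.162) and 0.59 over nonTG (unadjusted p = 0.141), and with cyclic loess 0.46 (unadjusted p = 0.184) and 0.60 (unadjusted p = 0.125).

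A second probeset was annotated to Bmpr2 together with the predicted gene Gm20272, and its levels were ordered otherwise. It stood at 6.32, 6.41 and 6.90 in the KDM1A TG arrays, at 6.91 and 6.72 in the nonTG arrays and at 6.27, 6.03 and 5.88 in the C57BL/6 arrays. All 5 arrays of KDM1A TG and nonTG sires lay above all 3 C57BL/6 arrays, as they did for 6.15% of all genes on their own probesets. Its change was 0.48 for KDM1A TG over C57BL/6 (SE 0.32, adjusted p = 0.476) and 0.75 for nonTG over C57BL/6 (SE 0.36, adjusted p = 0.569). By these estimates the probesets differed in the sign of nonTG over C57BL/6. They also differed in that of KDM1A TG over nonTG, with -0.27 (SE 0.36) on the shared probeset against 0.83 on that of Bmpr2 alone. The share of the signal that comes from Gm20272 cannot be told apart from that of Bmpr2.

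**Figure D2:**
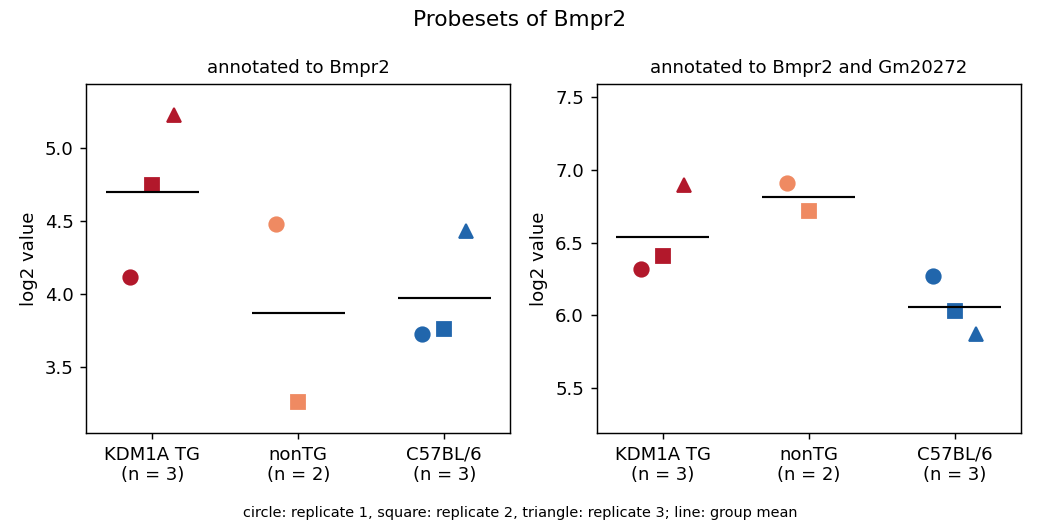
Deposited log2 value (vertical axes of equal span) of the probeset annotated to Bmpr2 alone and of the one annotated to Bmpr2 and Gm20272, in the 3 KDM1A TG, 2 nonTG and 3 C57BL/6 arrays, with group means as lines. The nonTG arrays stand at 4.48 and 3.26 on the first, among or below the arrays of the other groups, and at 6.91 and 6.72 on the second, above all C57BL/6 arrays.

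Ranked by Pearson r, the genes whose log2 values over the 8 arrays were most like those of Bmpr2 were Tmem30a, a subunit of phospholipid flippases, Ywhag, a 14-3-3 protein, and Map3k3, a kinase of the MAP kinase cascade. Their r was 0.969, 0.961 and 0.954, the highest among 10234 genes ranked. These values describe 8 arrays that also share array-wide differences in the width of their values.

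Acvr2a, a type II receptor for activins that also binds BMPs and Nodal, stood at 4.01, 4.48 and 4.49 in the KDM1A TG arrays, at 4.07 and 3.72 in the nonTG arrays and at 4.28, 3.81 and 4.25 in the C57BL/6 arrays. It had the smallest spread of the 9 genes over all arrays, with an SD of 0.29. The change was 0.21 for KDM1A TG over C57BL/6 (SE 0.32, adjusted p = 0.756) and -0.22 for nonTG over C57BL/6 (SE 0.36, adjusted p = 0.869). Its value of 0.21 lay close to the median of all genes and turned to -0.01 after quantile normalization.

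Nodal, the ligand that sets the body axes and keeps the epiblast pluripotent after implantation, stood at 2.41, 2.91 and 2.30 in the KDM1A TG arrays, at 2.38 and 3.16 in the nonTG arrays and at 2.64, 3.13 and 2.24 in the C57BL/6 arrays. Replicate 2 was the highest array in every group, and the labels do not say whether arrays of the same replicate number share a batch. The change was -0.13 for KDM1A TG over C57BL/6 (SE 0.33, interval -0.78 to 0.53, adjusted p = 0.863) and 0.10 for nonTG over C57BL/6 (SE 0.37, adjusted p = 0.943). Lefty1, the secreted inhibitor that Nodal induces, stood at 2.19, 2.43 and 2.52 in the KDM1A TG arrays, at 2.15 and 3.13 in the nonTG arrays and at 2.23, 1.63 and 2.21 in the C57BL/6 arrays. Only C57BL/6 replicate 2 lay under the filter level, which put the C57BL/6 mean of 2.02 under it as well, and nonTG replicate 2 stood above all others. The change was 0.35 for KDM1A TG over C57BL/6 (SE 0.33, adjusted p = 0.6) and 0.61 for nonTG over C57BL/6 (SE 0.37, adjusted p = 0.679), and without nonTG replicate 2 this last value was 0.12. Lefty1 and Nodal were the members nearest to that level, and detection over background was not assessed here.

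**Figure D3:**
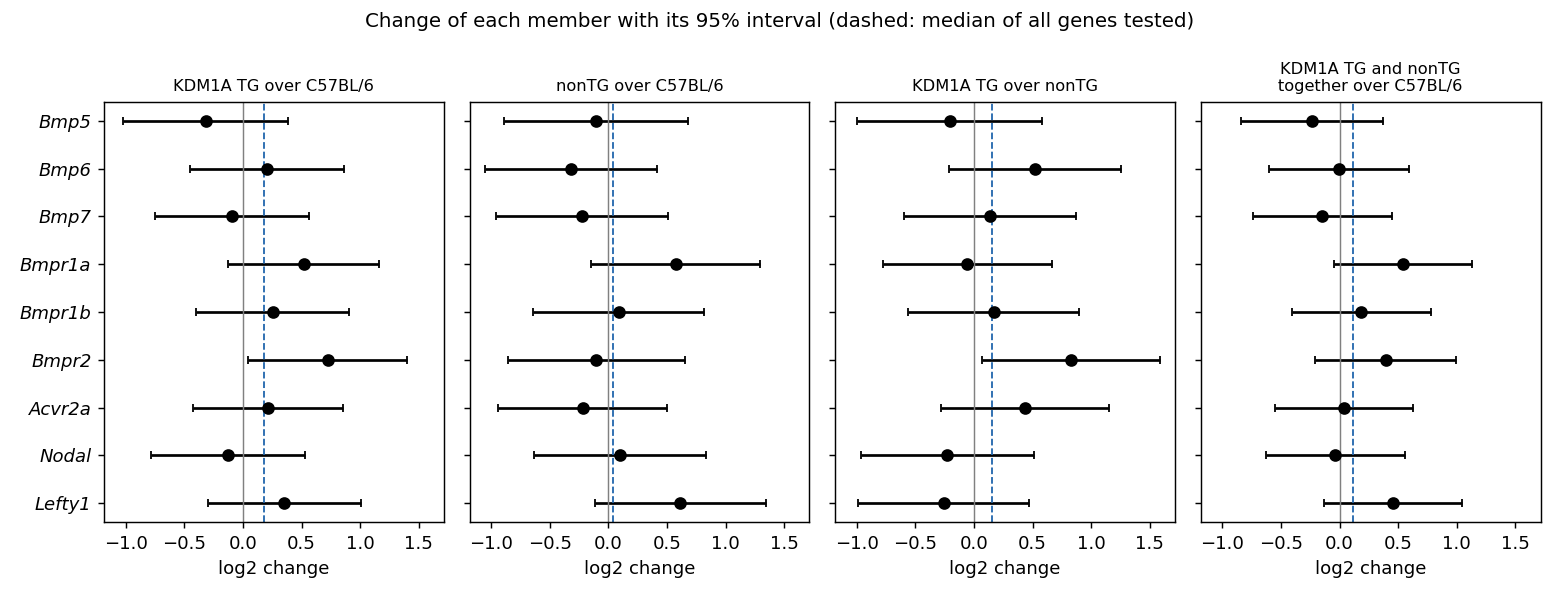
Log2 change (horizontal axis) of each of the 9 genes with its 95% interval in the 4 comparisons, with a grey line at 0 and a dashed line at the median of all 11444 genes tested. The intervals of Bmpr2 exclude 0 for KDM1A TG over C57BL/6 (0.05 to 1.40) and for KDM1A TG over nonTG (0.07 to 1.58), and all other intervals include it. With quantile normalization or cyclic loess the unadjusted p of Bmpr2 was 0.125 or higher in both comparisons. These intervals thus hold for the values as deposited, on the probeset annotated to Bmpr2 alone.

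As a group the 9 genes stood close to all genes. For KDM1A TG over C57BL/6, 6 of 9 had a change above 0 with a median of 0.21, against 64.9% of all genes and their median of 0.18. For nonTG over C57BL/6, 4 of 9 lay above 0 with a median of -0.10, against 53.2% and 0.04. For KDM1A TG over nonTG, 5 of 9 lay above 0 with a median of 0.13, against 65.4% and 0.16. By role, the 4 receptor genes all had changes above 0 for KDM1A TG over C57BL/6, from 0.21 to 0.72, and of the BMP ligands only Bmp6 did. The lowest of these, Acvr2a at 0.21, lay near the median of all genes, and Bmpr1b was -0.07 without KDM1A TG replicate 3. For nonTG over C57BL/6 the receptors were split, with Bmpr1a at 0.57 and Bmpr1b at 0.09, but Bmpr2 at -0.10 and Acvr2a at -0.22. The comparisons share arrays, so their values are not independent of one another.

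The members were also set against one another over the 8 arrays. Of 36 pairs, 0 passed after Benjamini-Hochberg adjustment of exact two-sided permutation tests, and 5 had an unadjusted p under 0.05 by Pearson's r. The share of pairs of other genes that reach that level was not computed. The 8 arrays share differences in array width and in marker levels, so these pairs are a description of the arrays only. Bmp6 and Acvr2a ran together across arrays most closely, with a Pearson r of 0.901 (exact permutation p = 0.0028, adjusted p = 0.094) and a Spearman rho of 0.905 (exact permutation p = 0.00456, adjusted p = 0.164). Without the 2 arrays farthest from the median of Bmp6 their r was 0.869, and without KDM1A TG replicates 1 and 3 it was 0.894. Bmp5 and Bmp7, ligands of the same BMP subgroup, ran opposite to each other, with a Pearson r of -0.852 (exact permutation p = 0.00784, adjusted p = 0.094) and a Spearman rho of -0.786 (exact permutation p = 0.0279, adjusted p = 0.335). Their r was -0.775 without the 2 arrays farthest from the median of Bmp5 and -0.836 without KDM1A TG replicates 1 and 3. Bmpr2 and Acvr2a had a Pearson r of 0.816 (exact permutation p = 0.014, adjusted p = 0.126) and a Spearman rho of 0.738 (exact permutation p = 0.0458, adjusted p = 0.412), and r was 0.581 without the 2 arrays farthest from the median of Bmpr2 and 0.762 without KDM1A TG replicates 1 and 3. Bmp7 and Lefty1 ran opposite, with a Pearson r of -0.812 (exact permutation p = 0.00739, adjusted p = 0.094) and a Spearman rho of -0.857 (exact permutation p = 0.0107, adjusted p = 0.193). Their r was -0.559 without the 2 arrays farthest from the median of Bmp7. The permutations moved values among all 8 arrays regardless of sire group, so their p-values do not measure association within groups. Taken as deviations from group means, r was 0.866 for Bmp6 and Acvr2a, -0.923 for Bmp5 and Bmp7, 0.754 for Bmpr2 and Acvr2a and -0.866 for Bmp7 and Lefty1. Such deviations sum to 0 within each group, which leaves fewer free values, and these r were not tested.

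Other genes of the pathways were taken from a list of 62 ligands, receptors, co-receptors, Smads, inhibitors, convertases and targets, of which 29 had a probeset of their own and 24 passed the filter, and the others were not analysed here. For KDM1A TG over C57BL/6, nonTG over C57BL/6 and KDM1A TG over nonTG, 0 of 24 passed, against 0.725%, 0.131% and 0.0437% of all genes. At an unadjusted p under 0.05 there were 5, 2 and 0 of 24, all of them higher, against 14.2%, 8.22% and 6.41% of all genes in either direction. At that level there were also 5 of 24, all higher, for KDM1A TG and nonTG together over C57BL/6. There the share of all genes in either direction was 12.8%. For KDM1A TG and nonTG together over C57BL/6, 1 of 24 passed, Id2, against 1.32% of all genes. Id2, an inhibitor of basic helix-loop-helix factors and a textbook BMP target, stood at 7.57, 7.40 and 8.03 in the KDM1A TG arrays, at 7.60 and 8.30 in the nonTG arrays and at 6.56, 6.96 and 5.98 in the C57BL/6 arrays. All 5 KDM1A TG and nonTG arrays lay above the C57BL/6 arrays, as they did for 6.15% of all genes. Id2 was 2.43-fold higher in them (log2 change 1.28, SE 0.30, adjusted p = 0.007), but the adjusted p was 0.106 with quantile normalization and 0.169 with cyclic loess. With the mean of the oviduct markers in the fit the change was 0.95 (adjusted p = 0.695), without KDM1A TG replicates 1 and 3 the adjusted p was 0.257, and without C57BL/6 replicate 1 or 3, KDM1A TG replicate 3 or nonTG replicate 2 it ran from 0.0561 to 0.22. In the same comparison 14 of 15 oviduct markers and 17 of 17 stroma markers had a change above 0, with medians of 0.37 and 0.73, and their part in the value of Id2 was not tested.

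Among the other targets, Id3, a relative of Id2, had a change of 0.93 for KDM1A TG over C57BL/6 (SE 0.33, adjusted p = 0.18) and of 0.43 for nonTG over C57BL/6 (SE 0.37, adjusted p = 0.757). Of the extracellular inhibitors, Twsg1, which binds BMPs together with chordin, had changes of 1.23 (SE 0.35, adjusted p = 0.0602) and 0.53 (SE 0.39, adjusted p = 0.718) in the same comparisons. Twsg1 stood at 4.26, 4.12 and 5.62 in the KDM1A TG arrays, at 4.37 and 3.57 in the nonTG arrays and at 3.103, 3.96 and 3.25 in the C57BL/6 arrays. All KDM1A TG arrays lay above all C57BL/6 arrays. Arrays of these groups did not overlap, in either direction, for 19.8% of all genes. Without KDM1A TG replicate 3 the change of Twsg1 was 0.75 (adjusted p = 0.815). Under 14 of 19 alternatives Twsg1 did not pass, and outside the fits without single arrays its change fell as low as 0.68. It passed with no filter (adjusted p = 0.0418), with median centring (0.0327) and with a variance trend (0.0291). It also passed without KDM1A TG replicate 2 (0.0381) and without C57BL/6 replicate 2 (0.0118). Nbl1, a BMP antagonist of the DAN family, had changes of 0.95 (adjusted p = 0.161) and 0.88 (adjusted p = 0.454). All 5 KDM1A TG and nonTG arrays of Nbl1 lay at 3.76 or higher, against 3.40 or lower in C57BL/6, an order found for 6.15% of all genes. Rgmb, a BMP co-receptor, had a change of 0.68 for KDM1A TG over C57BL/6 (adjusted p = 0.334), and the co-receptor endoglin, Eng, one of 0.01 (adjusted p = 0.994). Without KDM1A TG replicate 3 the changes of Id3, Nbl1 and Rgmb were 0.69, 0.69 and 0.38. That array also held the highest mean of the stroma markers, of which 17 of 17 had a change above 0 for KDM1A TG over C57BL/6, and their part in these values was not tested.

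Of the other BMP and GDF ligands, 2 of 6 had a change above 0 for KDM1A TG over C57BL/6 and 0 of 6 for nonTG over C57BL/6, against 64.9% and 53.2% of all genes, and 0 of 6 passed in either. Gdf9 and Bmp15, which oocytes secrete and which are named here after their values were seen, had changes of -0.62 and -0.55 for nonTG over C57BL/6 (adjusted p = 0.675 and 0.716). The maternal oocyte markers had 3 of 9 above 0 for KDM1A TG over C57BL/6, with a median of -0.21, and 1 of 9 for nonTG over C57BL/6, with a median of -0.73. The part of maternal RNA in the ligand values was not tested. Gdf2 (BMP9), a ligand of endothelial cells, had a change of -0.61 for KDM1A TG over C57BL/6 (SE 0.32, adjusted p = 0.373), and Bmp8a, which male germ cells need, one of -0.57 (SE 0.32, adjusted p = 0.398). All KDM1A TG and nonTG arrays of Gdf2 lay below all C57BL/6 arrays, where 8.17% of all genes did not overlap in either direction. All KDM1A TG arrays of Bmp8a lay below all C57BL/6 arrays, where that share was 19.8%. In these comparisons 4 and 6 of the 24 pathway genes lay wholly higher, and 1 and 2 wholly lower. The subunit genes Inhbb and Inha, which form activin B and the inhibins, had changes of -0.46 and -0.45 for KDM1A TG over C57BL/6 (adjusted p = 0.495 and 0.503). The receptor gene Acvr1b (ALK4), through which Nodal signals, had a change of 0.38 (SE 0.37, adjusted p = 0.616), which was -0.15 without KDM1A TG replicate 3, with 1.39 in KDM1A TG replicate 2 against 3.49 and 4.03 in the other KDM1A TG arrays. Smad5, a Smad of the BMP branch, had a change of 0.58 (adjusted p = 0.422; -0.08 without KDM1A TG replicates 1 and 3), and Furin, a convertase that cleaves BMP and Nodal precursors, one of 0.31 (adjusted p = 0.633).

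**Figure D4:**
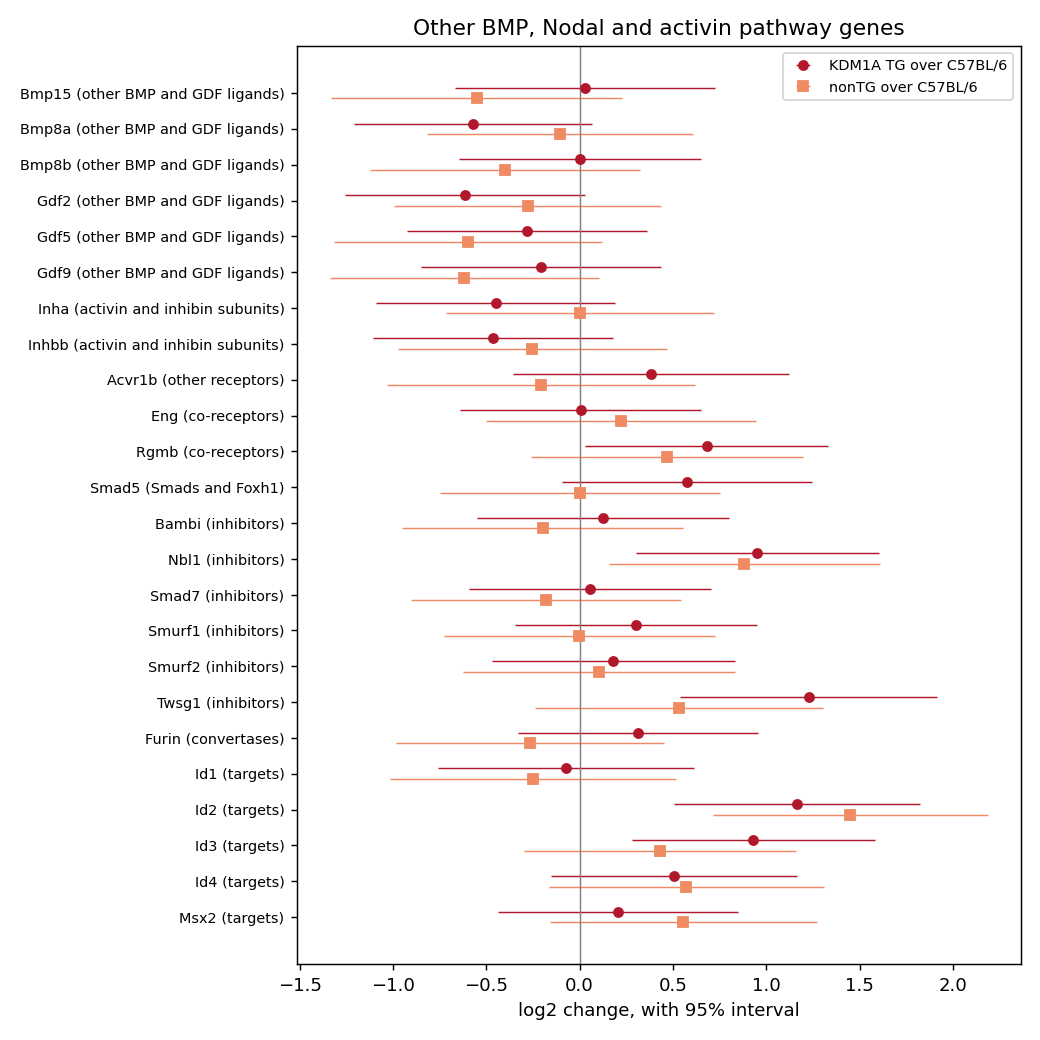
Log2 change with its 95% interval (horizontal axis) of the 24 other pathway genes that passed the filter, with role in parentheses, for KDM1A TG over C57BL/6 (circles) and nonTG over C57BL/6 (squares). Id2 lies farthest to the right for nonTG over C57BL/6 (1.45) and Twsg1 for KDM1A TG over C57BL/6 (1.23), and no gene shown passed over all genes in either comparison with the values as deposited and the filter at log2 2.07.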

How the data were processed

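RNA of 8 embryo pools was hybridised to 1 array each. Deposited values are the authors' log2 summaries of each probeset. The submitters' processing notes list R 3.1.0, oligo, RMA and limma with no role for any of them, and no source used here states background correction, annotation or filters. Of 22961 probesets, 15745 had 1 gene symbol in the platform annotation, and a gene with several was read from the one brightest over all arrays. Testing kept genes whose mean exceeded log2 2.07, which is percentile 30 of the probesets. One limma 3.58.1 model (R 4.3.3; lmFit, then eBayes) held the 3 groups of 8 arrays with a common variance, p-values were two-sided and Benjamini-Hochberg adjusted at 0.05, and intervals are 95%. In the joint comparison the 5 KDM1A TG and nonTG arrays formed a single group. The number of arrays limits the precision. The model was also run on simulated data with independent noise of its own fitted variances. That cannot show errors from differences in array width or from cells carried along. Members, gene lists, tests and alternatives were chosen with earlier results of these data known. Named genes are all members, pathway genes that passed or else up to 2 of each role by smallest p, and 3 genes most like the member of smallest p. Alternatives changed the filter, scaling, variance model, arrays, probeset, a replicate block and an oviduct covariate. Those without KDM1A TG replicates 1 and 3, on the shared Bmpr2 probeset or for pathway genes were added after seeing the data. Same-numbered arrays were not paired, and whether they share a batch is not given.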

Additional observations from a re-analysis of the deposited data

Results flagged for a closer look

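The probeset annotated to both Bmpr2 and Gm20272 did not enter the tests of genes with a probeset of their own and served as an alternative for Bmpr2, and its signal lay above that of the C57BL/6 arrays in all 5 arrays of KDM1A TG and nonTG sires. The lowest of the 5 stood at 6.32, in KDM1A TG replicate 1, against 6.27 for the highest C57BL/6 array. Such an order held for 6.15% of all genes on their own probesets. For KDM1A TG and nonTG together the log2 change over C57BL/6 was 0.59 (SE 0.30) and did not pass limma's test (adjusted p = 0.387). Among the 5 KDM1A TG and nonTG arrays, the gap between an outermost array and the next, divided by the range, was largest for Bmpr1b (0.639, KDM1A TG replicate 3) and Lefty1 (0.622, nonTG replicate 2), below Dixon's critical value of 0.71 for 5 values. These 5 values pool 2 sire groups, so a ratio below that value does not show that no array stood apart. Single groups of 2 or 3 arrays were not examined in this way.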

How the results depend on the processing

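No alternative made any of the 9 genes pass, so the count of members called was 0 in all 4 comparisons under each of them. Of 662 values of the 36 member changes under alternatives, 592 kept their direction and 70 reversed, 38 of these on leaving out single arrays, and 14 of the 36 changes never reversed. Many of the 592 could not reverse, so their number does not measure stability. Another filter or variance model, or the mean of all probesets of a gene, leaves the change of a member as it was. In comparisons of 2 groups, so does leaving out the group not compared or one of its arrays. The filter at the 50th percentile left out Nodal and Lefty1. After quantile normalization reversed changes were -0.0080 for Acvr2a and 0.0086 for Nodal (KDM1A TG over C57BL/6), -0.0046 for Bmp7 (KDM1A TG over nonTG), -0.087 for Acvr2a and 0.082 for Nodal (both together over C57BL/6). After cyclic loess reversed changes were -0.038 for Acvr2a (KDM1A TG over C57BL/6), -0.024 for Bmp7 (KDM1A TG over nonTG), -0.12 for Acvr2a and 0.049 for Nodal (both together over C57BL/6). After median centring reversed changes were 0.053 for Bmp6 and 0.021 for Nodal (both together over C57BL/6). With the replicate number as a block reversed changes were 0.15 for Bmpr2 and -0.066 for Nodal (nonTG over C57BL/6), -0.017 for Bmpr1b (KDM1A TG over nonTG), 0.083 for Bmp6 (both together over C57BL/6). With the mean of the oviduct markers in the fit reversed changes were 0.30 for Bmp5, -0.058 for Eng and -0.38 for Acvr1b (KDM1A TG over C57BL/6), 0.44 for Bmp5, -0.014 for Bmpr1b and 0.042 for Bmpr2 (nonTG over C57BL/6), 0.36 for Bmp5 and 0.19 for Bmp6 (both together over C57BL/6). Without KDM1A TG replicates 1 and 3, which leaves 1 KDM1A TG array assumed to vary like the other groups, reversed changes were 0.086 for Bmp5, -0.16 for Bmpr1b, 0.25 for Nodal, -0.10 for Eng, -1.196 for Acvr1b and -0.079 for Smad5 (KDM1A TG over C57BL/6), 0.19 for Bmp5, -0.27 for Bmp7, -0.25 for Bmpr1b and 0.15 for Nodal (KDM1A TG over nonTG), -0.024 for Acvr2a and 0.15 for Nodal (both together over C57BL/6). On the probeset shared with Gm20272 reversed changes were 0.75 for Bmpr2 (nonTG over C57BL/6), -0.27 for Bmpr2 (KDM1A TG over nonTG). Leaving out single arrays gave ranges of -0.70 to 0.025 for Bmp5 (KDM1A TG over C57BL/6), -0.27 to 0.11 for Bmp7 (KDM1A TG over C57BL/6), -0.051 to 0.42 for Bmp6 (KDM1A TG over C57BL/6), -0.067 to 0.46 for Bmpr1b (KDM1A TG over C57BL/6), -0.20 to 0.16 for Eng (KDM1A TG over C57BL/6), -0.15 to 1.17 for Acvr1b (KDM1A TG over C57BL/6), -0.34 to 0.10 for Nodal (KDM1A TG over C57BL/6), -0.82 to 0.61 for Bmp5 (nonTG over C57BL/6), -0.71 to 0.26 for Bmp7 (nonTG over C57BL/6), -0.049 to 0.22 for Bmpr1b (nonTG over C57BL/6), -0.71 to 0.51 for Bmpr2 (nonTG over C57BL/6), -0.29 to 0.49 for Nodal (nonTG over C57BL/6), -0.93 to 0.51 for Bmp5 (KDM1A TG over nonTG), -0.35 to 0.62 for Bmp7 (KDM1A TG over nonTG), -0.23 to 0.089 for Bmpr1a (KDM1A TG over nonTG), -0.15 to 0.38 for Bmpr1b (KDM1A TG over nonTG), -0.62 to 0.17 for Nodal (KDM1A TG over nonTG), -0.75 to 0.23 for Lefty1 (KDM1A TG over nonTG), -0.64 to 0.071 for Id2 (KDM1A TG over nonTG), -0.26 to 0.13 for Bmp6 (both together over C57BL/6), -0.25 to 0.19 for Nodal (both together over C57BL/6), -0.11 to 0.15 for Acvr2a (both together over C57BL/6), -0.62 to 0.10 for Bmp5 (both together over C57BL/6). The replicate block changed no other direction and no call. Deviations from group means had correlations of -0.38 to 0.18 between same-numbered arrays and of -0.26 to 0.26 between arrays of other numbers. Such deviations sum to 0 within groups of 2 or 3, so these values cannot show whether same-numbered arrays share a batch. Of the other pathway genes, 2 passed for KDM1A TG over C57BL/6 without a filter and after median centring and 1 with a variance trend, and leaving out single arrays gave 0 to 2. For nonTG over C57BL/6, 1 passed without a filter, and leaving out single arrays gave 0 to 1. For both together, 0 passed after quantile normalization, after cyclic loess, with the oviduct covariate and without KDM1A TG replicates 1 and 3, and leaving out single arrays gave 0 to 2. The causes were not tested. Scanner files were not used here, so signal over background is unknown.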
